A study of Rattus norvegicus with 24 samples.

Results

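The genes described here are 172 of the 24613 genes counted in rat dorsal root ganglia (DRG) whose RNA was lower after complete spinal cord transection and after contusion followed by exercise than in uninjured animals and in animals with contusion alone. They were chosen by their measured levels in all 24 libraries. Each count was divided by the library's total and multiplied by 1000000 to give the CPM, and L stands for log2(CPM + 0.5). A gene was taken if its mean CPM was at least 1, if each of the 14 transected and exercised libraries had a lower L than each of the 10 uninjured and contused ones, and if the mean L of the 14 was at least 1 below that of the 10. The difference between these sides is therefore what the genes were selected on, and it is given as a description without a test.

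All animals were adult female Sprague Dawley rats, and every group, the uninjured included, lived in tiny cages that restrict walking. The 4 No SCI rats had no injury, the 6 CONT SCI rats received a contusion of 25 g-cm at the second thoracic level, and both groups were collected at 11.5 weeks. After the same contusion, 5 CONT SCI + SWIM rats swam and 5 CONT SCI + SWW rats walked in shallow water on 5 days a week for 10 weeks from 2.5 weeks after injury, and their tissue was taken at 13.5 weeks. The spinal cord of the 4 TX SCI rats was cut completely at the same level, and their tissue was taken at 8.5 weeks. Injured rats were given the antibiotic gentamicin and the analgesic buprenorphine after surgery. For each rat, whole DRG of the lower thoracic and lumbar levels from both sides were pooled into 1 library.

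A DRG holds the cell bodies of sensory neurons whose axons run both to the skin, muscles and viscera and into the spinal cord. Satellite glia wrap the cell bodies, Schwann cells wrap the axons, and macrophages, fibroblasts and vessels lie between them. An injury of the cord can cut the central branch of some of these neurons, while the cell bodies lie outside the cord. In RNA of whole ganglia, fewer cells of a type and less RNA per cell cannot be told apart. The rows of the count matrix carry Ensembl identifiers without gene symbols, so the roles of the 172 genes are not given, and the tissue label was not checked against marker genes.

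The 14 libraries with lower levels, called the low side below, were all collected at 8.5 or 13.5 weeks, and the 10 of the high side at 11.5 weeks. The sides match neither injury alone nor exercise alone. The time of collection, or a batch of library preparation or sequencing that followed the sides, cannot be told apart from the treatments in this division. Total counts ran from 29191327 to 38370849 on the high side (median 32028958) and from 16086670 to 38730307 on the low side (median 26966961).

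Of 13482 genes with a mean CPM of at least 1, 527 (3.91%) had all low-side libraries below all high-side libraries, and 329 (2.44%) had them all above. The direction of these non-overlapping genes became more uneven with the size of the difference. At a difference of at least 1, the 172 genes were lower on the low side, while the mirror rule found 5 higher genes. Among the non-overlapping genes, those just inside the threshold had differences in mean L of -1.003 and -1.004, and those just outside had -0.995 and -0.991. By edgeR's quasi-likelihood test all 172 were also called lower on the low side at an adjusted p under 0.05, against 24.4% of all 15247 genes tested, but this is the contrast that chose them and nothing is read from it.

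The median difference of the 172 genes was -1.35 in L, with quartiles of -1.95 and -1.14 and a largest difference of -5.45. It lay between 1 and 2 for 133 genes, between 2 and 3 for 29, between 3 and 4 for 6 and at 4 or more for 4. The gap between the lowest high-side and the highest low-side library ranged from 0.01 to 4.61 in L, with a median of 0.64. For most of these genes the change was a reduction to a lower level and not a loss of the RNA. In 17 genes all 14 low-side libraries were under 1 CPM, 5 genes had no read in at least 1 low-side library, and 0 genes had no read in all of them.

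The mean CPM of the genes over the 24 libraries had a median of 7.53, with quartiles of 2.71 and 17.1 and a highest value of 147, against quartiles of 7.88 and 63.6 for all 13482 genes. CPM is not scaled to gene length, so these values describe how many reads lie behind the genes and not how abundant the transcripts are. Together the 172 genes took 0.411% ± 0.0272 (SD, n = 10) of the counts in a high-side library and 0.141% ± 0.0168 (SD, n = 14) in a low-side library.

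Averaged over the 172 genes, L was 3.74, 3.67, 3.69 and 3.70 in No SCI replicates 1 to 4. In CONT SCI the average ranged from 3.56 to 3.88 with a median of 3.69. It was 1.94, 1.95, 1.95, 2.12 and 2.08 in CONT SCI + SWIM replicates 1 to 5, and 1.99, 2.23, 1.96, 2.10 and 1.66 in CONT SCI + SWW. Contused rats without exercise therefore lay around the uninjured rats, which they overlapped, and both exercised groups lay at a similar level with a wider spread in CONT SCI + SWW. In TX SCI replicates 1 to 4 the average was 2.12, 2.22, 2.26 and 2.36, a range that overlaps the upper end of both exercised groups. The same average over all 13482 genes ranged from 4.50 to 4.62 on the low side and from 4.51 to 4.61 on the high side.

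**Figure D1:**
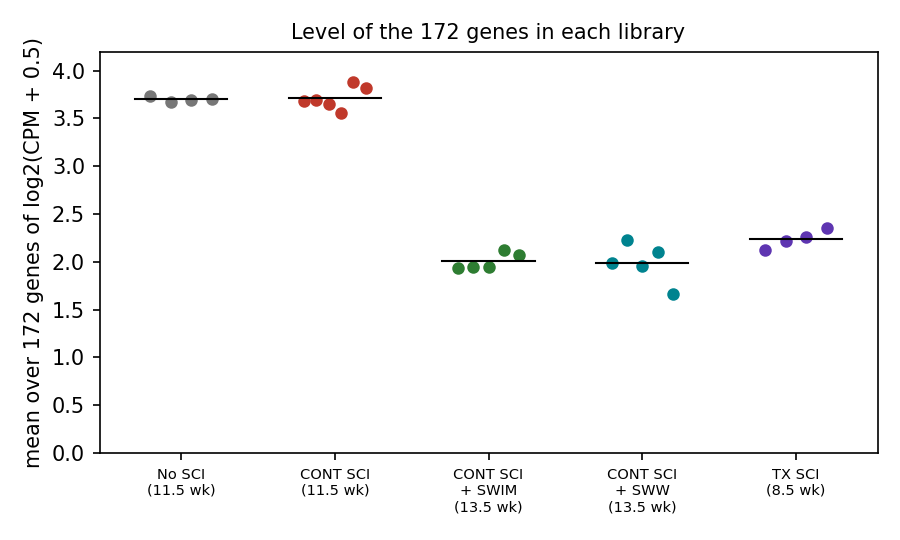
Mean over the 172 genes of log2(CPM + 0.5) in each of the 24 libraries (points) and its group mean (bars), with the week of collection under each group. The No SCI and CONT SCI libraries lie between 3.56 and 3.88 and the others between 1.66 and 2.36, a separation on which the genes were chosen.

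The gene with the largest difference was ENSRNOG00000055936. It was at 54.7, 52.2, 71.2 and 59.6 CPM in No SCI replicates 1 to 4 and ranged from 47.5 to 83.2 CPM in CONT SCI, with a median of 58.0. In CONT SCI + SWIM replicates 1 to 5 it was at 0.587, 0.746, 0.895, 0.976 and 0.974 CPM, and in CONT SCI + SWW at 0.639, 1.10, 0.717, 0.847 and 0.640 CPM. The TX SCI libraries held 0.848, 1.41, 1.21 and 1.47 CPM. Some reads were thus assigned to the gene in every low-side library, and the mean CPM of the high side was 66.4 times that of the low side. The low-side values rest on 12 to 47 reads per library, against 1546 to 3179 on the high side. Its difference of -5.45 in L depended on the added constant and was -5.02 with 1 and -5.93 with 0.1 in place of 0.5.

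The next largest difference, -4.50 in L, was that of ENSRNOG00000004757. Its level was 23.3, 24.4, 22.5 and 26.7 CPM in No SCI and ranged from 21.9 to 41.1 CPM in CONT SCI with a median of 27.5. It was 0.431, 0.622, 0.497, 1.01 and 0.749 CPM in CONT SCI + SWIM, and 0.568, 0.633, 0.211, 0.997 and 0.142 CPM in CONT SCI + SWW. In TX SCI it was 0.948, 1.17, 0.930 and 1.51 CPM. Its difference rests on 4 to 41 reads per low-side library and was -4.01 with an added constant of 1 and -5.14 with 0.1. CONT SCI replicate 5 was highest of its group for both genes, and for this gene CONT SCI + SWW replicates 3 and 5 were the lowest libraries, with 5 and 4 reads.

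**Figure D2:**
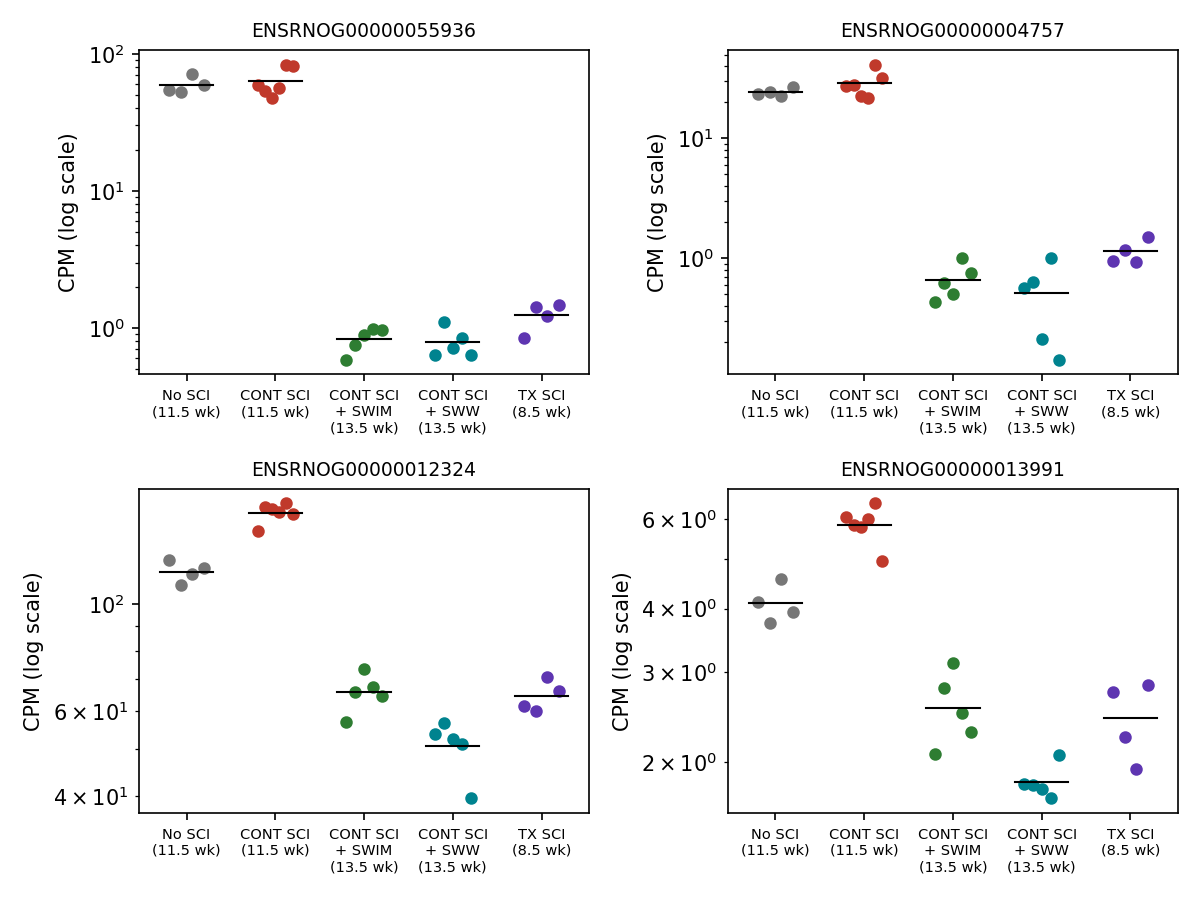
CPM on a log axis of 4 of the 172 genes in each library (points) with group means (bars). The upper genes have the largest differences between the sides. The lower genes were called higher in CONT SCI than in No SCI and higher after swimming than after walking. They were singled out after their values were seen.

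CONT SCI without exercise was compared with No SCI within the high side, where both were collected at the same time and all 172 genes were tested. The No SCI rats were naïve, so the contusion cannot be told apart from the surgery and drugs that came with it. CONT SCI differed from No SCI at 7 of the 172 genes (4.07%) at an adjusted p under 0.05 (edgeR, quasi-likelihood, adjusted over all genes by Benjamini and Hochberg), against 10.4% of 15126 genes tested. Of these, 3 were higher in CONT SCI (background 6.83%) and 4 were lower (background 3.6%). With all 24 libraries in the fit, the count was also 7, but 6 were higher (background 8.13%) and 1 was lower (background 3.78%), so the balance of directions depended on the libraries fitted. In the fit without the exercised groups, the higher genes differed by 0.43 to 0.54 on the log2 scale, and the lower ones by a size of 0.22 to 0.51. The median log2 fold change was 0.03 over the 172 genes and -0.01 over all tested genes. DESeq2's Wald test called 12 of the 172 genes (6.98%), 7 higher and 5 lower, against 12.6% of all genes it tested. Of all these genes 8.07% were called higher, and 693 of 15124 were called lower. By either tool the share called after contusion alone was below that of all tested genes. The rule itself used these libraries, since it required each No SCI and CONT SCI library to lie above all 14 low-side libraries. A gene lowered by contusion into the low-side range could not be chosen. The 172 genes also had fewer reads, with a median mean CPM of 7.53 against a lower quartile of 7.88 for the 13482 genes. How far these points set the share was not tested, so no weaker response to contusion is read from it.

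Within the low side, TX SCI was compared with the mean of both exercised groups, which differ from it in injury, training and week of collection. TX SCI differed at 58 of the 172 genes (33.7%) at an adjusted p under 0.05 by the same edgeR test, against 21.3% of 15247 genes tested. The direction was uneven, with 55 of the 172 genes higher in TX SCI against a background of 11.8%, and 3 genes lower against a background of 9.5%. This fit and its filter on low counts used all 24 libraries, and 5 of the genes passed the filter only through the groups where they are high. With only the low-side groups in the fit, 48 of 167 genes (28.7%) were called against 23.6% of 14895 genes tested, a smaller excess, with 44 higher in TX SCI (26.3%, background 11.4%) and 4 lower (background 12.2%). At 153 genes the TX SCI mean of L lay above the mean of the exercised libraries, so these genes were nearer to the high side in TX SCI. This tally was not set beside that of all 13482 genes, whose average L was also higher in TX SCI (4.59 against 4.54). The genes called higher with all 24 libraries in the fit differed by 0.34 to 1.09 on the log2 scale, with a median of 0.55. Of these, 4 reached 1. Over all 172 genes the median log2 fold change was 0.30, against 0.03 over all tested genes.

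By group means of L, TX SCI was the highest of the 3 low-side groups at 138 genes and the lowest at 15. CONT SCI + SWW was the lowest at 91 and CONT SCI + SWIM at 66. These tallies were not set beside those of all 13482 genes. The median difference from the high side was -1.22 in TX SCI and -1.44 in the exercised groups. At 12 genes (6.98%) all 4 TX SCI libraries lay above all 10 exercised libraries, against 4.34% of the 13482 genes. Such a separation was thus uncommon among these genes and among all 13482 genes. The overlap of libraries at most of these genes is therefore no trait of their own.

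**Figure D3:**
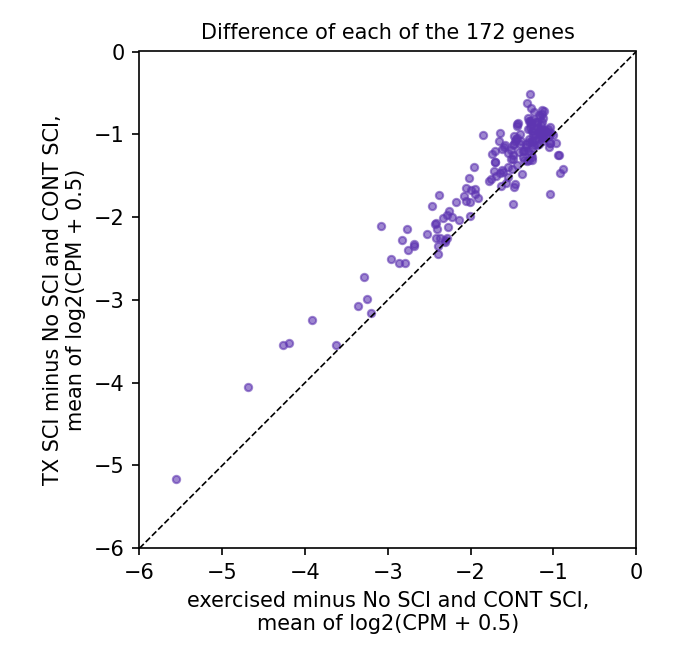
Difference of each of the 172 genes (points) from the mean of the 10 high-side libraries in log2(CPM + 0.5), for the exercised groups (horizontal axis) and TX SCI (vertical axis). The dashed line marks equal differences, and 153 genes lie above it, where TX SCI is nearer to the high side.

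The choice of the genes bears on this direction. The mean of the 14 low-side libraries holds 10 exercised and 4 TX SCI libraries, so a gene reduced more in the exercised groups passed the threshold more easily than one reduced more in TX SCI. With TX SCI and the exercised groups weighted equally, the rule gave 162 genes, of which 47 (29.0%) were called higher in TX SCI and 3 lower, against 11.8% and 9.5% of all genes tested. When both were required to lie at least 1 below the high side, it gave 125 genes, of which 34 (27.2%) were called higher and 1 lower, against the same shares of all genes. These 2 choices of genes were made after the values were seen and use the same values, so they do not free the direction from the choice. Both lists were tested only in the fit over all 24 libraries, and not with only the low-side groups in the fit. Of the libraries left out in turn, TX SCI replicate 4 lowered the counts most, both for the 172 genes and for all genes. Without it, 31 of the 172 genes were called, 18.0% against 12.3% of all 15364 genes in that fit. Of these, 29 were higher in TX SCI (background 6.42%) and 2 were lower (background 5.85%). Without TX SCI replicate 2, 42 of the 172 (24.4%) were called against 15.4% of all genes, and without replicate 3, 42 against 16.1%.

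The gene with the largest difference between the sides, ENSRNOG00000055936, had a log2 fold change of 0.60 in TX SCI against the exercised groups (standard error 0.25, edgeR adjusted p = 0.0832). It passed the threshold by DESeq2's Wald test (adjusted p = 0.0234), when replicate numbers entered as a block (0.0238) and with only the low-side groups in the fit (0.0355), and over its 19 alternatives the adjusted p ranged from 0.0234 to 0.237. ENSRNOG00000004757 was higher in TX SCI by 0.95 (standard error 0.30, edgeR adjusted p = 0.0269), with adjusted p from 0.00125 to 0.135 over its alternatives. That call was lost without TX SCI replicate 2 (adjusted p = 0.0678) and without TX SCI replicate 4 (adjusted p = 0.135).

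The forms of exercise, swimming and shallow water walking, were compared at the same week. CONT SCI + SWIM differed from CONT SCI + SWW at 2 of the 172 genes at an adjusted p under 0.05 by the same edgeR test, against 2.99% of 15179 genes tested. Both were higher in CONT SCI + SWIM, against a background of 2.67% higher. This fit and its filter also used No SCI and CONT SCI, where the genes are high. With only the exercised groups in the fit, which was chosen after seeing the data, 160 of the 172 genes passed the filter and 1 was called, higher in CONT SCI + SWIM, against 3.72% of 14545 genes called and 3.11% called higher. Over the 172 genes the median log2 fold change was 0.02, against -0.01 over all tested genes.

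Both of these genes were also among the 3 called higher in CONT SCI than in No SCI, a comparison between other libraries. Those libraries also entered the fit of the exercised groups, and the genes were singled out after their values were seen. The share of all tested genes called higher in both comparisons was not counted, so no recurring pattern is read from these genes. ENSRNOG00000012324, the 112th by difference between the sides, was at 124, 109, 115 and 119 CPM in No SCI and ranged from 142 to 162 CPM in CONT SCI with a median of 156. It was at 57.1, 65.9, 73.2, 67.3 and 64.6 CPM in CONT SCI + SWIM, at 53.8, 56.6, 52.4, 51.2 and 39.5 CPM in CONT SCI + SWW and at 61.6, 60.0, 70.5 and 66.0 CPM in TX SCI. Every CONT SCI library lay above every No SCI library, and every CONT SCI + SWIM library lay above every CONT SCI + SWW library. How many of all genes show such a separation was not counted. Its log2 fold change was 0.43 in CONT SCI against No SCI (standard error 0.06, edgeR adjusted p = 0.000169) and 0.38 in CONT SCI + SWIM against CONT SCI + SWW (standard error 0.08, edgeR adjusted p = 0.0124). Without CONT SCI + SWIM replicate 3, the adjusted p of the latter was 0.0520 and the call was lost.

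ENSRNOG00000013991, the 164th by difference, was at 4.12, 3.75, 4.58 and 3.94 CPM in No SCI and ranged from 4.95 to 6.44 CPM in CONT SCI with a median of 5.92. It was at 2.07, 2.80, 3.13, 2.49 and 2.28 CPM in CONT SCI + SWIM, at 1.81, 1.80, 1.77, 1.69 and 2.06 CPM in CONT SCI + SWW and at 2.74, 2.24, 1.94 and 2.83 CPM in TX SCI. No library of CONT SCI overlapped No SCI, and the lowest CONT SCI + SWIM library lay just above the highest CONT SCI + SWW library. This separation too was not set beside that of all genes. The log2 fold change was 0.54 in CONT SCI against No SCI (standard error 0.11, edgeR adjusted p = 0.00461) and 0.47 between the exercised groups (standard error 0.12, edgeR adjusted p = 0.0381). The latter call was lost without CONT SCI + SWIM replicate 2 (adjusted p = 0.0913) or 3 (0.159), without CONT SCI + SWW replicate 1 (0.0687), 2 (0.0872), 3 (0.0792) or 4 (0.103), without the filter on low counts (0.0521), with only the exercised groups in the fit (0.0793) and when replicate numbers entered as a block (0.0601).

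Of the 172 genes, 111 (64.5%) were called in none of the 3 comparisons inside a side, against 70.5% of 15060 genes tested in all 3. Some of the 172 passed the filter of these fits only through the groups where they are high. In the low-side groups alone 167 passed it and in the exercised groups alone 160, and the count is not given for those fits. The genes also varied together among rats of the same group. After each group's mean was removed, the mean of Pearson's r over all pairs of the 172 genes was 0.337 across the 24 libraries, against 0.0188 over the 13482 genes. All pairs share the same libraries and their depth, and a list chosen for a common pattern is set here beside genes of every pattern, so this is a description. The average level was lowest in CONT SCI + SWW replicate 5 at 1.66 and highest in CONT SCI replicate 5 at 3.88, with total counts of 28141769 and 38194190.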

How the data were processed

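The authors sequenced poly-A RNA in a strand-specific protocol, used STAR to align reads to Rn6 and counted them per Ensembl gene without mitochondrial genes. FastQC 0.10.1 and HTSeq 0.10.0 are named in the submitters' processing notes. The deposited values are whole-number counts without normalization, and 4424 of the 24613 rows had no count in any library. Reads shared with near-identical or overlapping genes could be lost from such counts.

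All columns were matched to samples by group and replicate, and the 47 pairs of libraries within a group differed beyond counting noise (chi-square per gene 2.98 to 55.2). The rats are separate animals. CPM and L were computed with Python 3.11.15, numpy 2.4.6 and pandas 2.3.3. Comparisons used R 4.3.3 with edgeR 4.0.16 (filterByExpr with a minimum count of 10 and a minimum total of 15, TMM, glmQLFit, glmQLFTest, Benjamini-Hochberg adjustment, threshold 0.05) and DESeq2 1.42.0 as an alternative. CONT SCI against No SCI was fitted with TX SCI, the exercised groups with No SCI and CONT SCI, and TX SCI against the exercised groups over all 24 libraries. Standard errors are the size of the log2 fold change over the root of F. The tests were tried on simulated counts first. All 172 genes passed the filter in these fits, partly through the groups where they are high, while 167 passed it in the low-side groups alone and 160 in the exercised groups alone.

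The members and lists were chosen with earlier results of these data known. The annotation table (GRCr8, 47357 genes) matched 0 rows, so gene lists, marker genes and promoters were not used here. Of the genes printed, the rule named the 2 with the largest difference, and the others were chosen after their values were seen.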

Additional observations from a re-analysis of the deposited data

Results flagged for a closer look

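In 30 sets of values (the average L of the 172 genes, the total count and L of the 4 genes printed, each in 5 groups), about 1.5 would have a library far from its group by chance, and 1 did. CONT SCI + SWW replicate 5 had an L of 5.32 for ENSRNOG00000012324, against 5.69 to 5.84 in the other CONT SCI + SWW libraries. The same library had the lowest average of the 172 genes. This gene was called between the exercised groups, and its log2 fold change there lay between 0.32 and 0.43 over the alternatives.

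Groups set against the same other libraries were also compared with each other. Between TX SCI and the exercised groups 58 of the 172 genes (33.7%) passed the threshold, against 21.3% of all genes tested. With only the low-side groups in the fit 48 of 167 (28.7%) passed it, against 23.6%. Without TX SCI replicate 4, 31 of the 172 (18.0%) passed it, against 12.3%. Between the swimming and the walking group 2 of the 172 did (1.16%), against 2.99% of all genes tested, and with only these groups in the fit 1 of 160 did, against 3.72%. These are the counts of edgeR's test given above, and the part of the week of collection in the first cannot be told apart from injury and exercise.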

How the results depend on the processing

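The number of genes chosen was 172 by the rule, 191 with TMM library sizes, 145 and 190 with added constants of 1 and 0.1, 197 without the minimum CPM and 106 with a minimum of 5. A difference of at least 0.8 gave 242 genes and of at least 1.5 gave 68, and the mean difference without the demand of no overlap gave 184. Leaving out each library in turn gave 166 to 178. With every library thinned to the smallest total, an alternative chosen after seeing the data, 172 were chosen, of which 163 were among the original 172. The 106 and 68 follow from stricter limits.

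Between CONT SCI and No SCI the count of 7 became 12 with DESeq2 (12.6% of all genes) and 5 to 9 with each replicate left out (6.83% to 10.3% of all genes). Between TX SCI and the exercised groups the 58 of 172 (33.7%, against 21.3% of all genes) were 59 with RLE (34.3% against 21.3%), 62 with DESeq2 (36.0% against 23.4%), 54 without the filter (31.4% against 15.3%) and 48 of 167 with low-side groups only (28.7% against 23.6%). With each replicate left out they were 31 to 66 (29 to 63 called higher), against 12.3% to 22.6% of all genes. A shorter list, chosen after seeing the data, required TX SCI and the exercised groups each to lie at least 1 below the high side. It was tested only in the fit over all 24 libraries. Of its 125 genes 35 were called, against 21.3% of all genes, and 34 (27.2%) were called higher, against 11.8%. Between the exercised groups the count of 2 was 1 without the filter (1.96% of all genes) or with only these groups in the fit (3.72%) and 0 to 2 with each replicate left out (0.811% to 5.34% of all genes). It was 0 without CONT SCI + SWIM replicate 3 and 1 without CONT SCI + SWIM replicate 2 or CONT SCI + SWW replicate 2, 3 or 4. Between the sides, 7025 of all genes were called, and 6411 to 7421 with each replicate left out. Where no reason is given, the cause was not tested.

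Same-numbered libraries are different rats, and the mean correlation of their deviations was 0.0194 for CONT SCI and No SCI, -0.0468 for the exercised groups, and -0.00715 and 0.0332 for TX SCI with CONT SCI + SWIM and CONT SCI + SWW, so the numbers do not pair them. With the replicate block, 6 (3.49%), 47 (27.3%) and 1 (0.581%) of the 172 genes were called in the 3 comparisons inside a side, against 7.27%, 17.2% and 1.65% of all genes, and 6830 of all genes between the sides. The median log2 fold change between CONT SCI and No SCI was then -0.04.

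For genes near 1 CPM the smallest low-side library, of 16086670 counts, holds few reads, and the size of difference that can be detected there was not tested. Without gene names, cell composition was not examined.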
